A study of Mus musculus with 9 samples.

Results

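The IL-6 family of cytokines signals through the shared receptor chain gp130, and 9 of its genes were followed in mouse liver after activation of CD40. They were 3 ligand genes (Il6, Osm and Lif), 3 genes for the receptor chains that pair with gp130 or present a ligand to it (Il6ra, Osmr and Lifr), the gp130 gene itself (Il6st), the transcription factor gene Stat3 and the feedback gene Socs3. The 9 were chosen by name, for these roles, from the 24341 genes in the deposited table, and each had a value in every mouse. The mice were wild-type C57BL/6 adults, and livers were taken 48 h after an agonist antibody against CD40 (3 mice, numbered 2, 5 and 9) or PBS (6 control mice, numbered 3, 4, 7, 8, 11 and 12). The study's methods state that treated animals were left out when the antibody did not lower B cells in their blood, so the anti-CD40 group holds responding animals. Libraries were read from the 3′ end of transcripts, and each value is an FPKM, a fragment count divided by transcript length and by the mapped reads. Because 3′ reads do not increase with transcript length, FPKM levels of different genes were not compared, and a length cancels when one gene, or one ratio of genes, is compared between mice.

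Each IL-6 family cytokine brings gp130 together with a chain of its own. IL-6 binds the IL-6 receptor, which then recruits a pair of gp130 chains. Oncostatin M uses gp130 with the oncostatin M receptor, and in mice it binds the LIF receptor weakly, whereas LIF uses gp130 with the LIF receptor. The receptor complex activates JAK kinases, which phosphorylate STAT3. In hepatocytes STAT3 drives the acute phase genes, whose products are secreted into plasma, and it also drives SOCS3, which binds gp130 and shuts the kinases off.

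STAT3 binds DNA as a dimer, at sites of the form TTCNNNGAA, a motif that is its own reverse complement. In the 250 bases before the start site of genes, taken from the RefSeq sequences of assembly GRCm38.p6, this motif was found in 2306 of 32851 promoters (7.02%). Promoters on 1 chromosome were left out of the search, and genes on it count here as having no promoter entry. Among the 9 genes, 8 had a promoter entry and 1 of them, Socs3, held the motif (Osm had no entry). Its match lies at chr11:117969512-117969520 on the minus strand, 154 bases before the start of the gene. In a list of acute phase genes, 5 of the 16 genes with a promoter entry held the motif (31.2%). In a list of regulatory genes it was 2 of 14 (14.3%), both lists being known STAT3 targets. These shares count genes and the 7.02% counts promoters. A gene with several promoters has several chances of a match, so the 2 measures are not alike. The lines below give 60 bases around each match, 5′ to 3′ on the strand of the gene, with the motif in capitals, so that the letters of the match in the feedback gene can be set beside those in the target genes.
Socs3: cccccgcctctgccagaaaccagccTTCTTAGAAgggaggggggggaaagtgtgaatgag
Apcs: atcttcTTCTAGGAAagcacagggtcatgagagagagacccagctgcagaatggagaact
Fga: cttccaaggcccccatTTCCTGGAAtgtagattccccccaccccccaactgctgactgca
Fgb: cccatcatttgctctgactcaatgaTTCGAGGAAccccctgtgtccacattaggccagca
Hamp: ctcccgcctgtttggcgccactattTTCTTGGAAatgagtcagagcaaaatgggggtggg
Itih4: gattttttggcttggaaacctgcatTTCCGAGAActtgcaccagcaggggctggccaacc
Icam1: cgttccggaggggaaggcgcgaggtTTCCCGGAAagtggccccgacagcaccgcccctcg
Irf1: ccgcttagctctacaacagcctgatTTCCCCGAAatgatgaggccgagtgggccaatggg
The 9 capital letters share TTC and GAA by construction, and the 3 letters between them differ from gene to gene. A match shows only that these letters are present, not that STAT3 was bound there.

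In the livers of anti-CD40-treated mice, the genes for all 3 ligands, for the oncostatin M receptor, for gp130, for STAT3 and for SOCS3 lay above every control mouse, and the gene for the LIF receptor lay below every control mouse. The IL-6 receptor gene was the exception, with overlapping groups. The groups thus did not overlap in 8 of the 9 genes, 7 of them higher and 1 lower after anti-CD40, whereas among the 13807 genes with a mean of at least 0.1 FPKM the groups did not overlap in 42.4% (22.7% higher and 19.6% lower). In limma, which fits a linear model to each gene and steadies its variance with that of the others, applied to log2(FPKM + 0.1) in these 13807 genes, 8 of the 9 were tested, and 6 were higher and 1 lower at a Benjamini-Hochberg adjusted p under 0.05, compared with 45.1% of all genes (23.5% higher and 21.7% lower). Il6 and Osm passed the level filter only through the anti-CD40 mice, and Lif did not pass it, so that the counts describe these genes and give no support of their own. Fitted to 24326 genes without the filter, limma called 7 of the 9 higher and 1 lower, against 12.9% and 10.4% of genes. Only 14684 to 15545 of those genes lay above the floor in any 1 mouse. Genes without signal therefore lower these 2 shares, and the shares with the filter are the closer comparison.

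**Figure D1:**
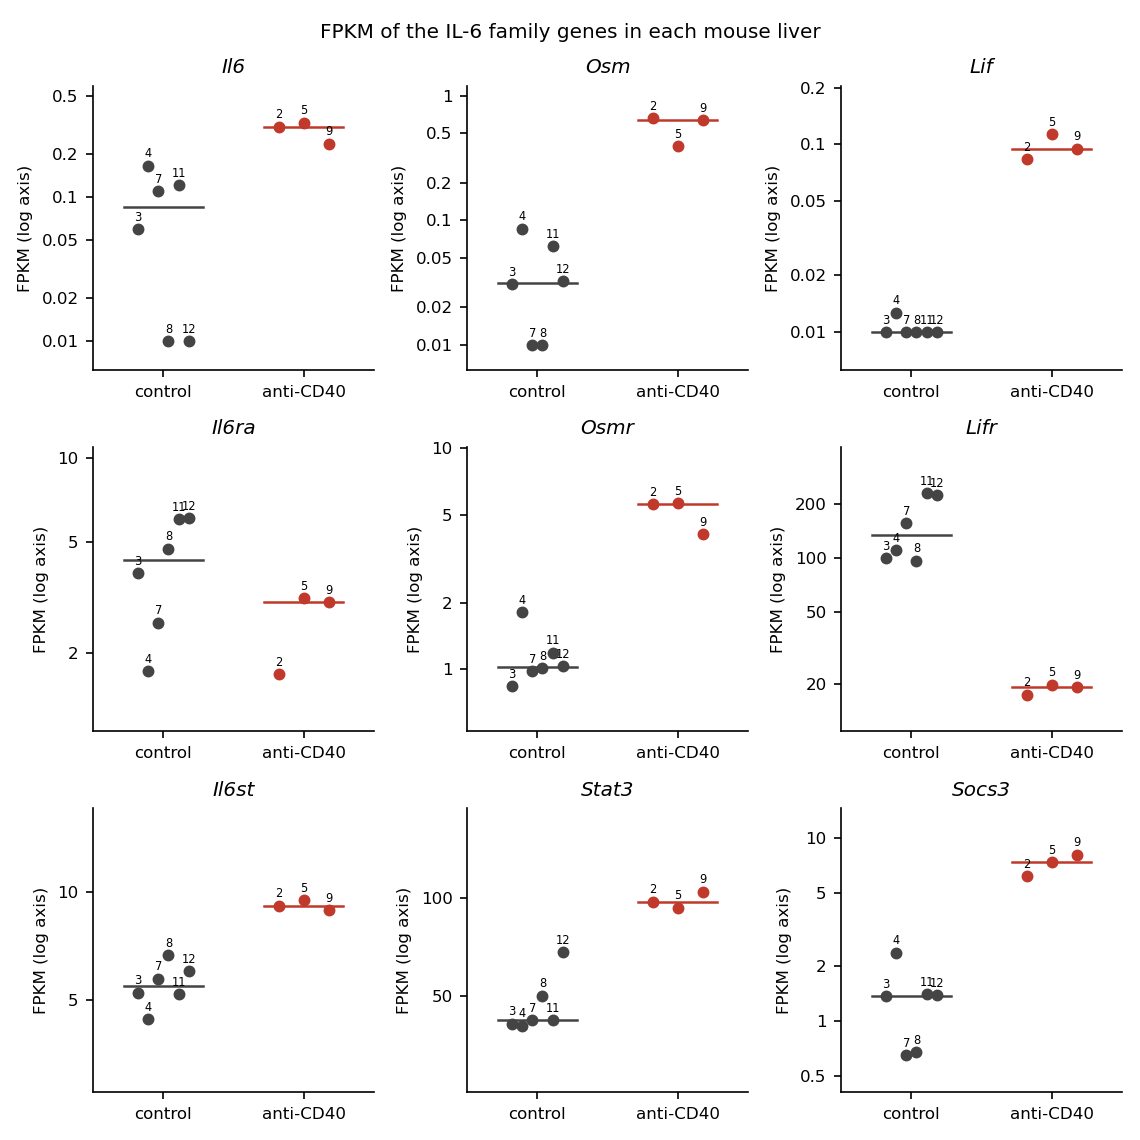
FPKM (vertical log axes, a separate scale for each gene) of the 9 genes in the livers of 6 control mice (dark points) and 3 anti-CD40 mice (red points), with the mouse number at each point and a line at the median of the group. In 8 panels the groups do not overlap, Il6ra overlaps, and 0.01 FPKM is the floor of the table.

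Several facts about the libraries bear on these values. Relative depth, read from the steps between low FPKM values, was 0.991 to 1.13 after anti-CD40 and 0.870 to 1.06 in controls, and the absolute depth is unknown. The genes Saa1, Saa2 and Saa3 together took 25.4% to 25.9% of the summed FPKM after anti-CD40 and 0.0449% to 0.38% in controls. Leaving them out and rescaling raised the median change of the genes tested, on the log2 scale, from 0.0056 to 0.35. Marker genes of cell types also differed between the groups, where 23.5% of all genes tested were higher and 21.7% lower. All 8 neutrophil markers in the table were higher (summed FPKM of 4216 to 5203 against 18.4 to 155), as were 7 of 8 monocyte and macrophage markers (325 to 444 against 42.3 to 76.9) and 9 of 10 lymphocyte markers (31.0 to 43.9 against 4.23 to 9.84). Among them Cxcr2, Mmp8, Ltf, Cd8a and Cd79a passed the level filter only through the anti-CD40 mice, so their calls give no support of their own. All 8 Kupffer cell markers were lower (40.6 to 52.9 against 295 to 470), and of 8 hepatocyte markers 5 were lower and 1 higher (3930 to 4651 against 11763 to 21105), so that the libraries do hold the defining genes of liver. The Kupffer cell marker Cd163 passed the filter only through the control mice. Among lists for the supporting cells, 3 of 9 stellate cell and fibroblast markers were higher and 2 lower (221 to 252 against 215 to 324), and 3 of 8 endothelial markers were higher and 2 lower (95.5 to 103 against 91.3 to 118). Of 5 cholangiocyte markers, 2 were higher (68.5 to 98.5 against 8.78 to 17.5). Of 7 pancreas acinar markers tested, 1 was higher, and their sum reached 729 in anti-CD40 mouse 5, compared with 1.08 to 2.02 in controls. The acinar gene called, Cpb1, passed the level filter only through the anti-CD40 mice. In the stellate, endothelial, cholangiocyte and acinar lists 55.6%, 62.5%, 40% and 14.3% of the genes were called, against 45.1% of all genes. With so few genes in each list, no shift of these cells is read from their counts. In bulk liver, fewer cells of a type and less RNA per cell cannot be told apart, and the part that these shifts have in the values of the IL-6 family genes was not tested.

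Among the ligands, Osm, the gene for oncostatin M, had the largest log2 fold change, on a scale that understates the change of low genes such as Lif. Osm (mm10 chr11:4236785-4241026) had an FPKM of 0.663, 0.395 and 0.635 in anti-CD40 mice 2, 5 and 9, and in control mice its lowest, median and highest values were 0.01, 0.0317 and 0.0854. Every anti-CD40 mouse was thus well above the highest control, mouse 4. The means were 0.564 ± 0.148 (SD, n = 3) and 0.0385 ± 0.0299 (SD, n = 6), with a log2 fold change of 2.26 (standard error, SE, 0.25, limma adjusted p = 5.48e-05). Since the values lie near the pseudocount, the fold change ran from 0.59 with a pseudocount of 1 to 3.77 with 0.01, and the call held in each of these fits. The FPKM steps corresponded to 25, 14 and 21 reads in the anti-CD40 mice and to 0 to 3 reads in each control, with 2 controls at 0. That is 60 reads against 7, and after allowing for depth the rate was 15.7 times higher (95% exact interval 7.18 to 40.8, which covers counting error only). Reads here and below are the smallest whole numbers that give the FPKM in all 9 mice, within a tolerance of 0.05 reads.

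Il6, which encodes interleukin-6, was low in every liver. Il6 (chr5:30013161-30019968) had an FPKM of 0.307, 0.327 and 0.234 in anti-CD40 mice 2, 5 and 9, and its lowest, median and highest control values were 0.01, 0.0845 and 0.165. The groups did not overlap, although the values rest on few reads, with 6, 6 and 4 after anti-CD40 and 0 to 3 in controls. In sum these were 16 reads against 8, a rate 3.67 times higher (95% exact interval 1.48 to 9.90, counting error only). The means were 0.289 ± 0.0490 (SD, n = 3) and 0.0790 ± 0.0631 (SD, n = 6), and the log2 fold change was 1.19 (SE 0.32, limma adjusted p = 0.0121). A pseudocount of 1 gave 0.26 and one of 0.01 gave 2.19, and both passed the test, whereas with quantile normalization it was 0.84 and no longer passed the threshold (limma adjusted p = 0.0543).

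Lif, the gene for leukemia inhibitory factor, was almost silent in control livers. Lif (chr11:4257568-4272514) had an FPKM of 0.0828, 0.113 and 0.0945 in anti-CD40 mice 2, 5 and 9, whereas 5 of the 6 controls were at the floor of 0.01 and control mouse 4 was at 0.0127. The reads were 7, 9 and 7 after anti-CD40 and a single read, in mouse 4, among the controls. The 23 reads against 1 give a rate 42.2 times higher, with a 95% exact interval for counting error of 6.85 to 1737. With a mean of 0.0392 FPKM over the 9 mice Lif fell under the filter, and a 2-sided exact permutation test, in which the mice can be split in 84 ways, gave p = 0.0238, the smallest it can give, for a log2 difference of 0.83. In the fit without a filter limma gave the same difference with an adjusted p of 1.53e-05. With 5 of the 6 controls at the floor, their spread was set by the floor, so this limma p gives no support of its own.

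Osm and Lif are neighbours on chromosome 11, with 16.5 kb between the end of one and the start of the other and 0 genes of the table between them. Both were higher in each of the 3 anti-CD40 mice than in any control, and in both the highest control was mouse 4. The same mouse had the highest control value of Il6. It also had the highest control sums of neutrophil (155), lymphocyte (9.84), stellate cell and fibroblast (324) and cholangiocyte (17.5) markers and the lowest of hepatocyte markers (11763). Over all 9 genes, mouse 4 was the highest control in 5 (Il6, Osm, Lif, Osmr and Socs3) and the lowest in 3 (Il6ra, Il6st and Stat3). Without mouse 4 the log2 fold change was 2.35 for Osm and 1.32 for Il6, and both calls held.

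Of the receptor chain genes, that of the oncostatin M receptor rose and that of the LIF receptor fell. Osmr (chr15:6813577-6874313), whose product forms the signalling receptor for oncostatin M with gp130, had an FPKM of 5.56, 5.62 and 4.08 in anti-CD40 mice 2, 5 and 9. Its lowest, median and highest control values were 0.836, 1.02 and 1.81. All anti-CD40 mice lay more than 2-fold above the highest control, mouse 4. The means were 5.09 ± 0.873 (SD, n = 3) and 1.14 ± 0.345 (SD, n = 6), and the log2 fold change was 2.09 (SE 0.22, limma adjusted p = 3.67e-05). An increase of this size or more was seen in 5.08% of the genes tested. Osmr is well covered, with 1481 reads in the anti-CD40 mice and 611 in the controls, and leaving out any mouse moved the fold change only between 2.01 and 2.24.

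Lifr, which encodes the receptor chain that LIF shares with several relatives, showed the opposite change. Lifr (chr15:7129572-7197489) had an FPKM of 17.4, 19.8 and 19.1 in anti-CD40 mice 2, 5 and 9, and in controls its lowest, median and highest values were 96.8, 134 and 231. The anti-CD40 mice were close to each other and far under every control, whereas the controls themselves spread over a range of more than 2-fold. The mean fell from 153 ± 61.2 (SD, n = 6) to 18.8 ± 1.22 (SD, n = 3), so the control mean was 8.16-fold higher, and the log2 fold change was -2.93 (SE 0.29, 95% interval -3.58 to -2.28, limma adjusted p = 2.61e-05). Only 0.681% of genes tested fell as much or more, which places Lifr at rank 94. Over the alternatives the fold change stayed between -3.04 and -2.56. Hepatocyte markers fell in the same mice, by a median of 0.97 on the log2 scale over the 8 genes, and the part of a change in cell make-up in the fall of Lifr was not tested.

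Osmr and Lifr lie side by side on chromosome 15, with 255 kb and 0 genes of the table between them, and so a neighbouring pair of receptor genes moved in opposite directions. The ratio of Osmr to Lifr within each mouse measures this apart from the scale of the library. Anti-CD40 mice 2, 5 and 9 had ratios of 0.319, 0.284 and 0.213, with a lowest, median and highest control value of 0.00461, 0.00729 and 0.0163. With 0.1 added to each FPKM, the mean difference was 5.02 on the log2 scale, or 32.3-fold. That the ratios did not overlap follows from the values of the 2 genes, 1 above and 1 below every control, so this ratio is a description and no p is given for it. Both genes are divided by a transcript length, so the ratio compares mice and does not say which receptor chain was more abundant.

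Il6ra, the gene for the chain that binds IL-6, did not differ beyond the spread of the mice. Il6ra (chr3:89869324-89913162) had an FPKM of 1.68, 3.16 and 3.05 in anti-CD40 mice 2, 5 and 9, compared with a lowest, median and highest control value of 1.73, 4.31 and 6.09. All 3 anti-CD40 mice lay under the control median, but their range overlapped that of control mice 4 and 7. The means were 2.63 ± 0.825 (SD, n = 3) and 4.18 ± 1.8 (SD, n = 6), the log2 fold change was -0.57 (SE 0.39, limma adjusted p = 0.263), and its 95% interval ran from -1.44 to 0.30. These mice therefore leave room for a fall of more than 2-fold as well as for no fall. The exact permutation p was 0.238. The fold change was -0.29 without anti-CD40 mouse 2 and -0.22 when the Saa genes were left out. It was -0.74 with quantile normalization (limma adjusted p = 0.151) and -0.79 without control mouse 4 (limma adjusted p = 0.0577). None of these fits passed the test. Between 112 and 360 reads per mouse were recovered for Il6ra, and the coefficient of variation among the controls was 43.1%.

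Il6st, which encodes gp130, the chain that IL-6, oncostatin M and LIF all use, rose modestly and evenly. Il6st (chr13:112464070-112506860) had an FPKM of 9.15, 9.49 and 8.89 in anti-CD40 mice 2, 5 and 9, and its lowest, median and highest control values were 4.44, 5.49 and 6.68. The anti-CD40 mice spanned a narrow range that started above the highest control. The means were 9.18 ± 0.298 (SD, n = 3) and 5.55 ± 0.774 (SD, n = 6), and the log2 fold change was 0.73 (SE 0.13, limma adjusted p = 0.00140), which became 1.09 when the Saa genes were left out.

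Ratios to gp130 within each mouse show how Il6ra and Osmr changed relative to the gene of the shared chain. Il6ra to Il6st came to 0.184, 0.333 and 0.343 in anti-CD40 mice 2, 5 and 9, and its lowest, median and highest control values were 0.389, 0.724 and 1.17. The groups did not overlap for this ratio, although they overlapped for Il6ra itself. The difference was -1.30 on the log2 scale, so the ratio was 2.46-fold lower after anti-CD40 (2-sided exact permutation p = 0.0238, also 0.0238 after Benjamini-Hochberg adjustment over the 4 ratios computed). All 4 ratios were at the smallest p that the test can give, so the adjustment could not change it. Osmr to Il6st was 0.608, 0.592 and 0.459 after anti-CD40, with a lowest, median and highest control value of 0.152, 0.171 and 0.408, the highest being mouse 4. This ratio was 2.57-fold higher after anti-CD40 (log2 difference 1.36, exact permutation p = 0.0238, adjusted 0.0238). With a pseudocount of 1 the difference in Osmr to Il6st was 0.87 (exact permutation p = 0.0476). Relative to Il6st RNA, then, Osmr RNA rose and Il6ra RNA fell. Il6ra alone did not pass the test, and the rise of Il6st is part of the fall in its ratio. Receptor protein was not measured in these files.

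**Figure D2:**
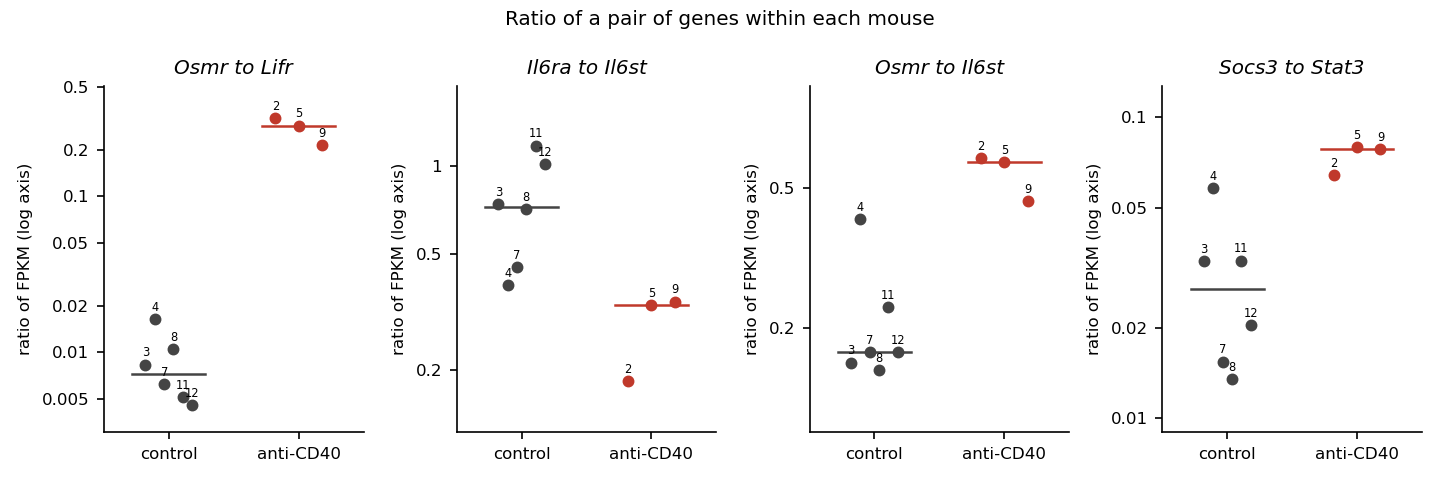
Ratios of FPKM within each mouse (vertical log axes) for Osmr to Lifr, Il6ra to Il6st, Osmr to Il6st and Socs3 to Stat3, in 6 control mice (dark points) and 3 anti-CD40 mice (red points), numbered by mouse, with a line at the median of the group. In all 4 panels the groups do not overlap, and control mouse 4 is the control nearest to the anti-CD40 mice.

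Downstream of the receptors, the genes for both the transcription factor and its feedback inhibitor rose. Stat3 (chr11:100886810-100939511) had an FPKM of 97.2, 93.0 and 104 in anti-CD40 mice 2, 5 and 9, and 40.7, 42.2 and 68.2 were the lowest, median and highest control values. The highest control was mouse 12, still under each anti-CD40 mouse. The log2 fold change was 1.07 (SE 0.17, limma adjusted p = 4.59e-04). RNA levels of Stat3 do not measure the phosphorylated protein, which was not measured in these files.

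Socs3 (chr11:117966087-117969366), the feedback inhibitor whose promoter letters are given above, rose more than Stat3. Anti-CD40 mice 2, 5 and 9 had 6.23, 7.38 and 8.15 FPKM, with a lowest, median and highest control value of 0.650, 1.38 and 2.36. Every anti-CD40 mouse lay more than 2-fold above control mouse 4, the highest of the controls. The means were 7.26 ± 0.968 (SD, n = 3) and 1.31 ± 0.628 (SD, n = 6), and the log2 fold change was 2.50 (SE 0.35, limma adjusted p = 2.20e-04), a rise matched or passed by 3.40% of the genes tested. In reads, the 3 anti-CD40 mice had 348, 388 and 399 and the controls 29 to 123. The ratio of Socs3 to Stat3 was 0.0641, 0.0794 and 0.0782 after anti-CD40, with a lowest, median and highest control value of 0.0135, 0.0268 and 0.0582. This ratio did not overlap between the groups either and was 2.68-fold higher after anti-CD40 (log2 difference 1.42, exact permutation p = 0.0238, adjusted 0.0238). The difference was 0.82 with a pseudocount of 1 and 0.95 with quantile normalization (exact permutation p = 0.0476 in each).

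**Figure D3:**
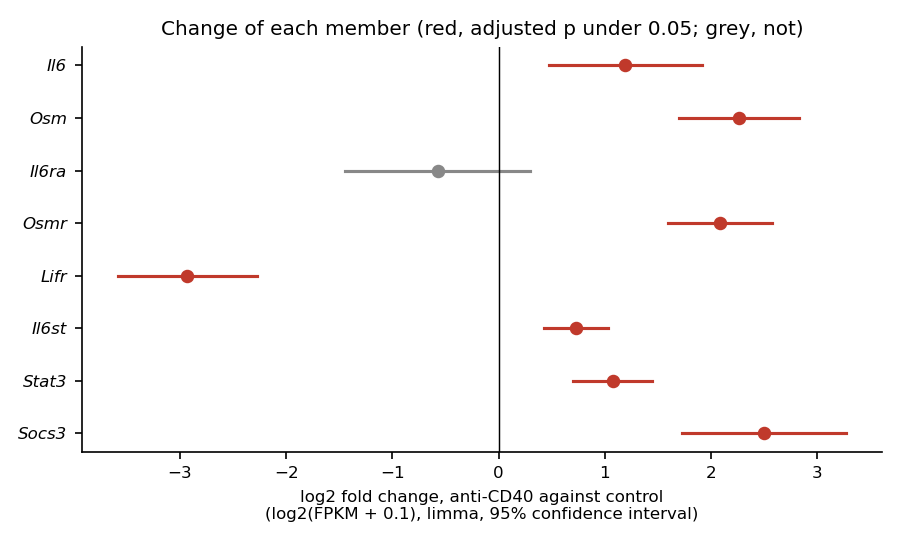
Log2 fold change, anti-CD40 against control, of the 8 genes tested with limma on log2(FPKM + 0.1) (horizontal axis), with bars for the 95% confidence interval and a line at 0. Lifr lies far to the left at -2.93, the interval of Il6ra crosses 0, and Il6, Osm, Osmr, Il6st, Stat3 and Socs3 lie to the right of 0.

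The pattern of a gene over the 9 mice was compared with that of 10154 genes with a mean of at least 1 FPKM, as the root mean square difference in log2 values taken relative to the control mean. The genes most like Osmr were Lyve1 (0.177), Abr (0.182) and Apobr (0.197), and Lyve1 is itself a marker of sinusoidal and lymphatic endothelium. Lyve1 does not stand for the endothelial list, in which 3 of 8 genes were higher and 2 lower (23.5% and 21.7% of all genes). Its log2 fold change was 2.08, whereas those of Clec4g and Kdr were -0.88 and -0.42. Nearest to Lifr were Keg1 (0.256), Nudt7 (0.333) and Abca8a (0.341), and nearest to Stat3 were Acer2 (0.117), Stap2 (0.123) and Tubb5 (0.129). Socs3 had no neighbour as close, with Nfkbiz, an inhibitor-like regulator of NF-κB, at 0.369, Lyve1 at 0.391 and Ube2t at 0.414. These distances describe 9 mice that share 2 treatments.

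Other cytokines and receptor chains that work through gp130 or a related chain were examined as a list of 14 genes, of which 8 passed the level filter. After anti-CD40 4 of the 8 were higher, 2 were lower and 2 did not pass the test (23.5% and 21.7% of all genes were higher and lower), with a median log2 fold change of 1.09 (0.0056 over all genes tested). Il11, the gene for interleukin-11, which signals through gp130, rose most. Anti-CD40 mice 2, 5 and 9 had 5.80, 4.47 and 1.85 FPKM of it and controls 0.01 to 0.266, with mouse 4 the highest control. The reads were 211, 153 and 59 against 0 to 9, and the log2 fold change was 4.43 (SE 0.42, limma adjusted p = 1.74e-05), with a range of 2.13 to 5.67 over the alternatives, as the controls lie near the pseudocount. Il11 too passed the filter through its anti-CD40 values. In contrast Il11ra1, which encodes the receptor chain for interleukin-11, fell from 89.7 ± 14.1 (SD, n = 6) to 44.2 ± 3.32 (SD, n = 3) (log2 fold change -1.01, limma adjusted p = 2.82e-04). The table gives 1 other gene at the position of Il11ra1, with which reads could be shared.

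Clcf1, the gene for cardiotrophin-like cytokine, had a log2 fold change of 2.53 (limma adjusted p = 2.83e-04), and Ebi3, the gene for a subunit of interleukin-27 and interleukin-35, had one of 2.42 (adjusted p = 2.79e-05). Each shares its position with 2 other genes of the table, so the part of each gene in the value is uncertain. Il27, the gene for the partner of Ebi3 in interleukin-27, was listed at the floor of 0.01 in all 9 mice, as were Ctf2 and Il31. Ctf1, for cardiotrophin-1, was lower by a log2 fold change of -0.69 (limma adjusted p = 0.0131), but it did not pass the test without anti-CD40 mouse 2 (limma adjusted p = 0.0604) and when the Saa genes were left out (-0.35, adjusted p = 0.201). Lepr, the leptin receptor gene, related to gp130 in structure and chosen here after its values were seen, had 1.81, 1.54 and 1.56 FPKM after anti-CD40 and 0.258 to 0.340 in 5 controls, whereas control mouse 4 stood at 1.63 among the treated mice. Its log2 fold change was 1.77 (limma adjusted p = 0.00889) with mouse 4 and 2.12 without it.

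Kinases and adaptors that link gp130 to STAT3 and to Ras signalling formed a list of 12 genes, all tested. After anti-CD40 3 were higher, 2 were lower and 7 did not pass the test, so that 41.7% were called, near the 45.1% of all genes, and the median log2 fold change was 0.00095. Jak2 and Jak1, both kinases bound to gp130, had log2 fold changes of 0.85 (limma adjusted p = 0.00152) and 0.45 (adjusted p = 0.00645), and the adaptor gene Grb2 had one of 0.59 (adjusted p = 8.10e-04). The groups did not overlap for any of the 3, with Jak2 at 6.52 to 8.29 FPKM after anti-CD40 and 3.19 to 4.66 in controls. Jak1 shares its position with 1 other gene of the table. Among the genes that were lower, Hras, which encodes a small GTPase, fell by 0.71 on the log2 scale (limma adjusted p = 0.00139).

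Genes that restrain the pathway or shed its receptors made up another list of 12, all tested. After anti-CD40 7 were higher, none was lower and 5 did not pass the test (58.3% called, compared with 45.1% of all genes, of which 23.5% were higher), with a median log2 fold change of 0.69. Socs1, a relative of Socs3 that inhibits JAK kinases, had 14.3, 11.3 and 8.08 FPKM in anti-CD40 mice 2, 5 and 9 and 0.931 to 3.49 in controls (log2 fold change 2.69, limma adjusted p = 1.69e-04). For 3 relatives the test was not passed. Socs2 had a log2 fold change of -0.04 (95% interval -1.16 to 1.08, limma adjusted p = 0.956) and Cish had one of 0.53 (95% interval -0.65 to 1.71, limma adjusted p = 0.440), so that sizeable changes either way remain possible. Socs7 was at -0.53 (limma adjusted p = 0.0750) and was lower past the threshold in 3 alternatives. Ptpn6, which encodes the phosphatase SHP-1 of blood cells, rose by a log2 fold change of 1.56 (limma adjusted p = 1.45e-05). Rhbdf2, which encodes iRhom2, a partner of the protease ADAM17, rose by 1.38 (adjusted p = 5.54e-04). Adam17 and Adam10, which encode proteases that cut the IL-6 receptor from the cell surface, were named for this role, and their log2 fold changes were 0.79 (adjusted p = 6.78e-04) and 0.84 (adjusted p = 0.0177). Adam10 did not pass the test without the level filter or without anti-CD40 mouse 2 (the highest adjusted p over the alternatives was 0.0840), and Adam17 shares its position with 1 other gene.

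Known targets of STAT3 were examined as an acute phase list and a regulatory list. Both were compiled with earlier results of these data known, so their counts describe these genes and give no support of their own. Of 20 acute phase genes, 18 were higher after anti-CD40, none was lower and 2 did not pass the test, whereas 23.5% of all genes were higher, and the median log2 fold change was 2.52. The largest rises were those of Saa2 (8.60), Lcn2 (8.38) and Saa1 (7.65), and limma gave adjusted p of 7.69e-07, 5.50e-07 and 1.39e-05, respectively. Saa1 and Saa2 are near-identical copies whose reads could be split between them. A2m, the classic target of IL-6 in rat liver and named for this, had 2.15, 1.83 and 1.14 FPKM in anti-CD40 mice 2, 5 and 9 and 0.01 to 0.0131 in controls. A2m passed the level filter only through the anti-CD40 mice. It rests on 483 reads against 3, a rate 295 times higher with a 95% exact interval for counting error of 100 to 1436. The 2 that did not pass the test were Crp, the gene for C-reactive protein, at 0.17 (limma adjusted p = 0.276), and Hamp, the gene for the iron hormone hepcidin, at -0.06 (limma adjusted p = 0.80). Crp depends on the scaling, since it passed with quantile normalization and when the Saa genes were left out (0.54, limma adjusted p = 0.00168), whereas Hamp turned to 0.31 in the latter and did not pass (limma adjusted p = 0.197). Hamp is held to be driven by IL-6 and carries the motif printed above.

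Of 20 regulatory targets, 11 were higher, 1 was lower and 8 did not pass the test (60% called, compared with 45.1% of all genes, 23.5% higher and 21.7% lower), and the median log2 fold change was 1.09. Birc5, which encodes survivin and is expressed in dividing cells, rose most, with a log2 fold change of 3.40 (limma adjusted p = 3.57e-05). Batf, a transcription factor gene of lymphocytes and other immune cells, rose by 3.05 (adjusted p = 3.49e-05). Icam1, an adhesion molecule gene that NF-κB also drives, rose by 3.04 (adjusted p = 7.11e-07). Vegfa had a log2 fold change of -0.71 (limma adjusted p = 0.0208), but the call was lost without any 1 of the anti-CD40 mice and when the Saa genes were left out (-0.35, adjusted p = 0.249). Of the 8 genes whose promoter sequences are given above, Socs3, Apcs, Fga, Fgb, Itih4 and Icam1 were higher, whereas Hamp and Irf1 (0.33, adjusted p = 0.179) did not pass the test. Irf1 did pass with quantile normalization and when the Saa genes were left out (0.69, limma adjusted p = 0.0107). The calls of Fgb and Itih4 were lost in the fit without a level filter. That of Itih4 was also lost without any 1 of the anti-CD40 mice and without control mouse 11. Many of these targets respond to other signals as well, and the part of the IL-6 family in their changes was not tested.

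**Figure D4:**
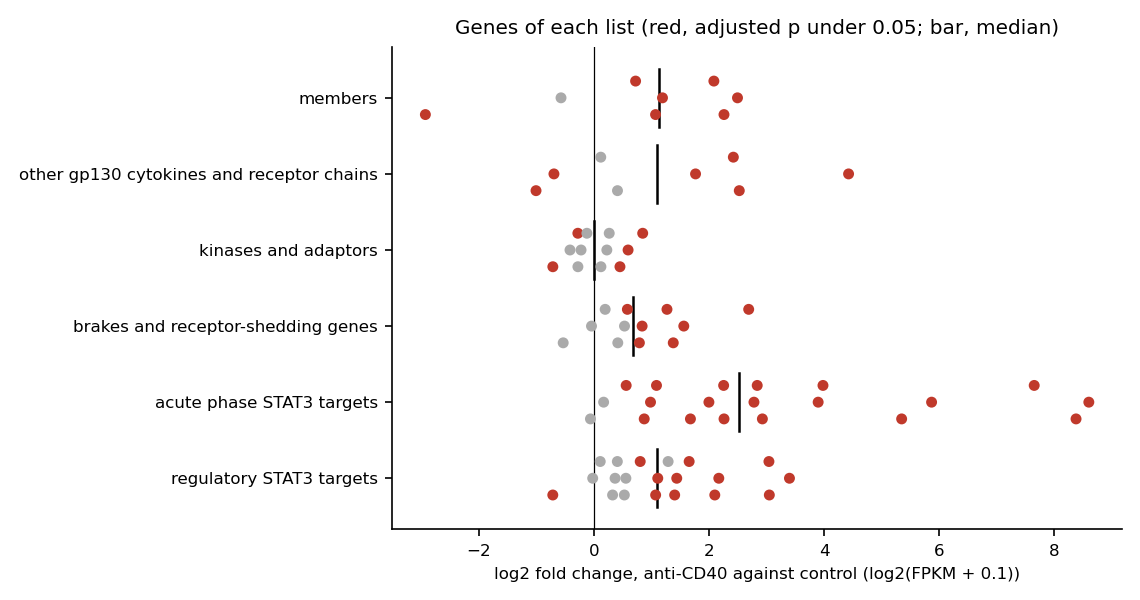
Log2 fold change, anti-CD40 against control (limma on log2(FPKM + 0.1)), of each tested gene in the lists of other gp130 cytokines and receptor chains, kinases and adaptors, brakes and receptor-shedding genes, acute phase targets and regulatory targets, with genes at an adjusted p under 0.05 in red and a bar at the median of the list. The medians are 1.09, 0.00095, 0.69, 2.52 and 1.09.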

How the data were processed

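The authors aligned reads of 3′ mRNA libraries (QuantSeq) from 9 mouse livers to mm10 with STAR, and deposited FPKM values made with Cufflinks and CuffDiff. The annotation, the filter applied to the table and the read totals are not given in the sources used here. Groups came from the sample labels, which give each liver a mouse number and name no batch. The table has a floor of 0.01, and of its 24341 genes the 24326 with an estimate in every mouse were kept.

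Genes with a mean of at least 0.1 FPKM (13807) were tested on log2(FPKM + 0.1), which understates the change of low genes, with limma 3.58.1 in R 4.3.3 (eBayes with trend, no covariates, 2-sided, Benjamini-Hochberg adjustment over all of them, threshold 0.05). Exact permutation tests of single genes and ratios used all 84 splits. Whole reads were recovered from FPKM steps for 6 of the 9 genes (tolerance 0.05, up to 400 reads in the lowest mouse), so no count test was run. The scripts (Python 3.11.15, numpy 2.4.6, pandas 2.3.3, scipy 1.17.1, matplotlib 3.10.9) were tested on simulated data. There 200 of 13807 genes were changed, far fewer than were called here. Limma recovered 87% of log2 changes of 2 and 56% of those of 1, with 6 false calls. A gene that did not pass the test may therefore still have changed.

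The genes and lists were compiled from general knowledge, with earlier results of these data known. Within each list the text names called genes among the 3 largest changes in each direction, and for Osmr, Lifr, Stat3 and Socs3 the 3 most similar genes. A gene that this rule took among the kinases and adaptors is counted in its list and not reported by name here. Others are named for a stated role, a promoter match or after their values were seen. Alternatives were other pseudocounts (0.01 or 1), other filters (none, or a mean of at least 1 FPKM), quantile normalization, median of ratios scaling, leaving out Saa1, Saa2 and Saa3 with rescaling, eBayes untrended or robust, stricter thresholds, and leaving out each mouse.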

Additional observations from a re-analysis of the deposited data

Results flagged for a closer look

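Among 13 sets of control values examined with Dixon's test (the 9 genes and the 4 ratios), 1 stood out, where chance gives 0.65. For Lif, control mouse 4 was the highest of the 6 controls on the log2 scale and its gap to the nearest of the others was the whole range of the group (a share of 1), because the other 5 controls were at the floor. The value rests on a single read. With the other 5 tied at the floor, any value above it gives a share of 1, so the number from chance does not apply to this flag.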

How the results depend on the processing

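Of the 8 genes of the family tested with limma, Il6ra, Osm, Osmr, Lifr, Stat3 and Socs3 kept their direction and their side of the threshold in every alternative that tested them. The call of Il6 was lost with quantile normalization and at an adjusted p under 0.01, and that of Il6st when the change also had to reach 2-fold. No direction was reversed among them, and leaving out any mouse left 6 higher and 1 lower. For each ratio, leaving out an anti-CD40 mouse leaves 28 splits, with which the exact test cannot reach 0.05. Without 1 mouse the log2 difference ranged from 4.87 to 5.22 for Osmr to Lifr, -1.46 to -1.02 for Il6ra to Il6st, 1.28 to 1.55 for Osmr to Il6st and 1.25 to 1.65 for Socs3 to Stat3. No paired analysis was possible because the groups share no mouse numbers.

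With the Saa genes left out and rescaled, 5635 genes were higher and 1647 lower (3240 and 2990 without rescaling), 1 of the other gp130 genes was lower, 6 kinases and adaptors were higher and 1 lower, and 0 regulatory targets were lower. At a change of at least 2-fold, 1889 genes were higher and 1253 lower, 1 other gp130 gene was lower, 0 kinases and adaptors were higher and 0 lower, 4 brakes and receptor-shedding genes were higher, and 0 regulatory targets were lower. At an adjusted p under 0.01, 1 other gp130 gene, 1 kinase or adaptor and 0 regulatory targets were lower. With a mean of at least 1 FPKM 2 other gp130 genes were higher, without the trend 1 kinase or adaptor was lower, with quantile normalization 1 brake was lower, and without a filter 0 regulatory targets were lower. The cause was not tested. Leaving out each mouse gave 2482 to 3560 genes higher and 2332 to 3270 lower. The counts higher and lower were then 4 and 1 to 2 for other gp130 genes, 3 and 1 to 2 for kinases and adaptors, 5 to 7 and 0 to 1 for brakes and receptor-shedding genes, 17 to 18 and 0 for acute phase targets, and 10 to 13 and 0 to 1 for regulatory targets.

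The control values of Il6, Osm and Lif rest on 8, 7 and 1 reads in all, so their sizes carry wide counting intervals.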
